A study of Mus musculus with 6 samples.

Results

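A set of 10 genes that act in the eye field and in retinal progenitors was followed in *Mll1KO* and WT retinas: *Rax*, *Six3*, *Six3os1*, *Six6*, *Lhx2*, *Sox2*, *Sox8*, *Sox9*, *Mab21l1* and *Mab21l2*. These are 10 of the 11339 genes with a value, all 10 were measured, and they were chosen by their measured *Mll1KO* and WT values as well as by their names. Their differences between genotypes are therefore given as a description and were not tested. RNA-seq covered 3 *Mll1KO* and 3 WT samples taken at postnatal day 14 (P14), each from a pair of retinas. *Mll1KO* mice carried the genotype MLL1 fl/fl with Chx10-Cre, whose Cre recombinase is expressed in retinal progenitor cells, WT mice were wild type without these alleles, and both were C57Bl6/J. The WT samples were not Cre-negative littermates, so that the floxed alleles, the Cre transgene and the loss of *Mll1* cannot be told apart.

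The eye field is the patch of anterior neural plate that forms the retina. *Rax*, *Six3*, *Six6*, *Lhx2* and *Pax6* encode homeodomain proteins that specify it and later keep retinal progenitors dividing. SOX proteins with an HMG box hold progenitors in an undifferentiated state, and in the mature retina several of these genes remain active in Müller glia and in subsets of neurons. *Mab21l1* and *Mab21l2* encode proteins of a nucleotidyltransferase fold that the developing eye needs, and *Six3os1* is a long noncoding RNA made from the opposite strand at the *Six3* locus, so that 3 of the genes are not transcription factors in the strict sense.

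The values are RPKM as the authors deposited them, which relate the reads of a gene to its length and to all reads of the library. Values of single samples are given in the order a, b and c within a genotype. The WT libraries held 23836033, 19777205 and 19323512 reads, and the *Mll1KO* libraries 23348923, 19855963 and 17961097. Behind the values of the 10 genes stood between 393 and 6292 reads per gene and library, as recovered from the RPKM. Differences are given on the log2(RPKM + 1) scale as *Mll1KO* minus WT with their standard error (SE). This scale understates the difference of weakly expressed genes. Ranks use this scale and cover only genes that the authors' expression filter kept, so that genes it removed have no rank. In a whole retina, fewer cells that express a gene and less RNA per cell cannot be told apart.

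*Kmt2a*, as the floxed gene *Mll1* is now named, had RPKM values of 36.1, 36.9 and 34.6 in WT and of 22.9, 20.4 and 22.3 in *Mll1KO*. It was lower in all 3 *Mll1KO* samples than in any WT sample, at 60.9% of the WT mean. This RPKM counts the whole gene, not the floxed exons alone.

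Of the 10 genes, 5 were lower in *Mll1KO* with no overlap between the groups (*Mab21l2*, *Six3os1*, *Six3*, *Lhx2* and *Six6*), and 0 were higher without overlap. The other 5 (*Rax*, *Sox2*, *Sox8*, *Sox9* and *Mab21l1*) overlapped between the genotypes. Among all 11339 genes, 26.5% were lower without overlap and 14.6% were higher without overlap, and since the choice of the genes used this contrast, nothing is read from the difference. The median log2 difference was -0.22 over the 10 genes and -0.03 over all genes. Rod scaling, in which the summed RPKM of the rod markers is set equal in all libraries and which lowered the median over all genes to -0.32, put all 10 genes and 83.3% of all genes lower without overlap, so that the directions of *Rax*, *Sox2*, *Sox8* and *Mab21l1* depend on the scaling. With median-of-ratios (RLE) or upper-quartile factors, *Mab21l1* and *Sox2* were higher without overlap, as were 19.9% and 19.1% of all genes.

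**Figure D1:**
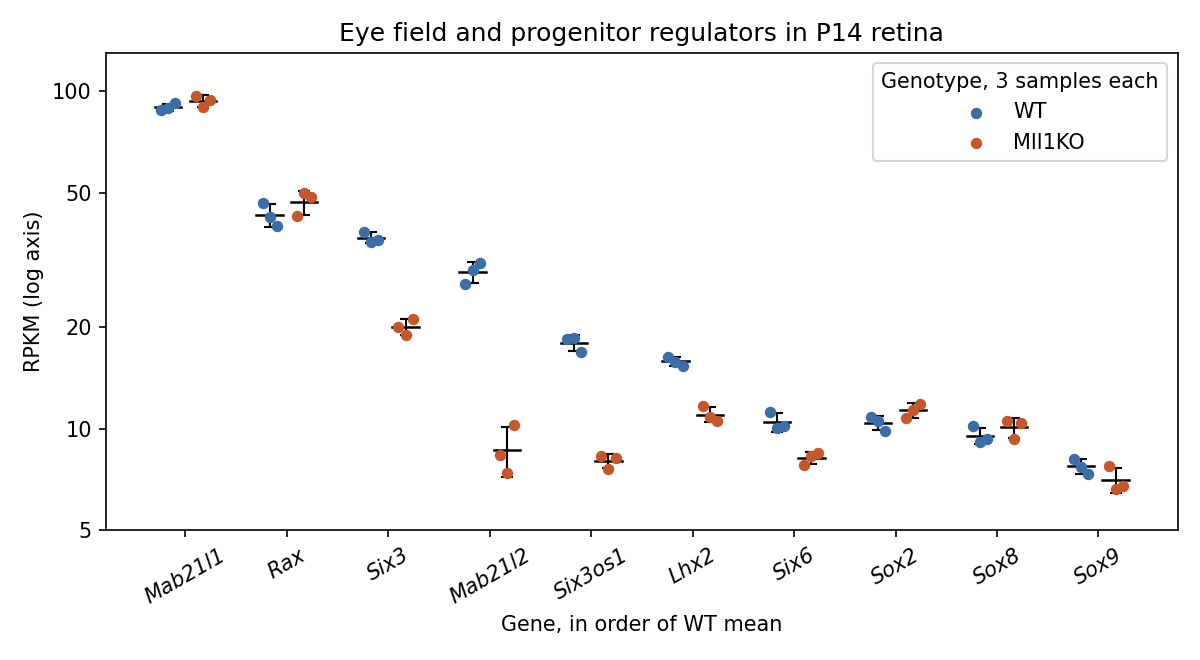
RPKM (log axis) of the 10 genes in each of 3 WT (blue) and 3 *Mll1KO* (orange) samples, with the mean (line) and SD (bar), in order of the WT mean. *Mab21l2*, *Six3os1*, *Six3*, *Lhx2* and *Six6* have every *Mll1KO* point below every WT point, while the points of the other 5 genes overlap at this scaling. With rod scaling all 10 are lower without overlap (83.3% of all genes). With RLE or upper-quartile factors *Mab21l1* and *Sox2* are higher without overlap (19.9% or 19.1% of all genes).

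Per length, *Mab21l1* had the highest level of the 10 genes in WT, with an RPKM of 89.7 ± 2.13 (SD, n = 3), and *Sox9* the lowest, with 7.74 ± 0.412 (SD, n = 3). Between them came *Rax*, *Six3*, *Mab21l2*, *Six3os1*, *Lhx2*, *Six6*, *Sox2* and *Sox8* in falling order of mean RPKM. The length recovered for the RPKM of *Rax*, the shortest that gave whole reads, is 1669 bases against 5846 exon bases in GENCODE. The place of *Rax* thus depends on the length used. The recovered lengths also differ from GENCODE for *Mab21l1* (2776 against 2492 bases) and *Mab21l2* (2703 against 3049 bases). The place of *Mab21l2* in *Mll1KO* likewise depends on the length used. Neighbours in this order did not overlap among the 3 WT samples, except *Six6* with *Sox2* and *Sox2* with *Sox8*. In *Mll1KO*, *Mab21l1*, *Rax* and *Six3* again held the 3 highest levels and *Sox9* the lowest. *Mab21l2* stood at place 4 in WT and 7 in *Mll1KO*, *Six3os1* at place 5 and 9, and *Sox2* at place 8 and 4. Below *Six3*, 5 neighbouring pairs overlapped among the *Mll1KO* samples, so that *Sox2* and *Lhx2*, and likewise *Sox8*, *Mab21l2*, *Six6*, *Six3os1* and *Sox9* taken as neighbours, were not separated there.

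*Rax*, the retina and anterior neural fold homeobox gene that is among the first switched on in the eye field, lies on chromosome 18 (ENSMUSG00000024518, 65928277 to 65939787, minus strand, GRCm38). Its RPKM was 46.7, 42.5 and 39.9 in WT and 42.6, 49.9 and 48.5 in *Mll1KO*. *Mll1KO* sample a lay within the WT range and the other *Mll1KO* samples above it. The mean was 43.1 ± 3.41 in WT and 47.0 ± 3.85 in *Mll1KO* (SD, n = 3), a log2 difference of 0.12 (SE 0.07) that became -0.20 with rod scaling. The shortest gene length that gave whole reads for this RPKM was 1669 bases, against 5846 exon bases in GENCODE vM21. Of those exon bases, 27.4% overlap the antisense gene *Raxos1*.

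*Six3*, a SIX-class homeodomain gene that keeps the anterior neural plate free of posterior signals, lies on chromosome 17 (ENSMUSG00000038805, 85613608 to 85629302, plus strand) with 4 exon blocks. Its RPKM was 38.4, 35.9 and 36.4 in WT and 20.03, 19.0 and 21.2 in *Mll1KO*. All 3 *Mll1KO* samples were lower than all 3 WT samples. The mean was 36.9 ± 1.33 in WT and 20.1 ± 1.08 in *Mll1KO* (SD, n = 3), which is 54.4% of WT. The log2 difference was -0.85 (SE 0.05), at rank 20 of the 11339 genes with a value, counted from the lowest.

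*Six3os1* lies across the 5′ part of *Six3* on the minus strand of chromosome 17 (ENSMUSG00000093460, 85600651 to 85618398) with 5 exon blocks. Its RPKM was 18.5, 18.6 and 16.9 in WT and 8.30, 7.59 and 8.21 in *Mll1KO*. Every *Mll1KO* sample had less than every WT sample. The mean was 18 ± 0.971 in WT and 8.03 ± 0.385 in *Mll1KO* (SD, n = 3), 44.6% of WT. The log2 difference was -1.07 (SE 0.06), at rank 10 of the 11339 genes with a value, counted from the lowest.

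The locus partners *Six3* and *Six3os1* were thus both lower in *Mll1KO*, under each scaling tried. The ratio of *Six3* to *Six3os1* RPKM was 2.07, 1.93 and 2.16 in WT and 2.41, 2.50 and 2.58 in *Mll1KO*. The antisense RNA was the lower of the pair relative to WT, and the ratio was higher in all 3 *Mll1KO* samples, at 1.22 times the WT mean. The exons of the pair share 106 bases, which are 1.95% of the exon bases of *Six3* and 0.892% of those of *Six3os1*, and the sources used here do not say that reads were counted by strand, so that reads from the shared bases cannot be assigned to either gene. A further antisense gene, *Gm28528*, overlaps 168 exon bases of *Six3* and was not analysed here. The flanking genes *Six2* and *Camkmt* were not analysed here.

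*Six6*, the closest relative of *Six3* among the 10 genes, promotes the growth of the progenitor pool and lies on chromosome 12 (ENSMUSG00000021099, 72939892 to 72944899, plus strand). Its RPKM was 11.3, 10.04 and 10.2 in WT and 7.83, 8.33 and 8.47 in *Mll1KO*. The groups did not overlap, and the means were 10.5 ± 0.670 in WT and 8.21 ± 0.336 in *Mll1KO* (SD, n = 3). At 78.3% of WT, with a log2 difference of -0.32 (SE 0.06), it was closer to WT than *Six3*. With rod scaling the log2 differences were -0.62 for *Six6* and -1.17 for *Six3*. The ratio of *Six3* to *Six6* RPKM was 3.52 ± 0.0955 in WT and 2.45 ± 0.146 in *Mll1KO* (SD, n = 3). The coding sequences of *Six3* and *Six6* share 77.4% of 729 aligned bases. Their relatives *Six2* and *Six4* were not analysed here.

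*Lhx2*, a LIM-homeodomain gene that optic vesicle progenitors and, later, Müller glia depend on, lies on chromosome 2 (ENSMUSG00000000247, 38339281 to 38369733, plus strand). Its RPKM was 16.4, 15.8 and 15.4 in WT and 11.7, 10.9 and 10.6 in *Mll1KO*. It was lower in every *Mll1KO* sample, with a mean of 15.9 ± 0.484 in WT and 11.03 ± 0.576 in *Mll1KO* (SD, n = 3), 69.6% of WT. The log2 difference was -0.49 (SE 0.05), and -0.80 with rod scaling. Its neighbours *Dennd1a*, 51890 bases away, and *Crb2*, 540177 bases away, had log2 differences of -0.15 (SE 0.06, limma adjusted p = 0.074) and 0.02 (SE 0.04, limma adjusted p = 0.824).

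*Sox2*, the SOXB1 gene that holds neural progenitors undifferentiated and remains active in Müller glia and some amacrine cells, is a single-exon gene on chromosome 3 (ENSMUSG00000074637, 34650405 to 34652461, plus strand). Its RPKM was 10.8, 10.5 and 9.89 in WT and 10.8, 11.4 and 11.9 in *Mll1KO*. *Mll1KO* sample a lay within the WT range and the other *Mll1KO* samples above it. The log2 difference was 0.11 (SE 0.05), and -0.19 with rod scaling. The gene lies inside the long noncoding *Sox2ot*, which was not analysed here.

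*Sox8* and *Sox9* are SOXE genes of late progenitors and Müller glia. *Sox8* lies on chromosome 17 (ENSMUSG00000024176, 25565892 to 25570686, minus strand), and its RPKM was 10.2, 9.16 and 9.31 in WT and 10.5, 9.32 and 10.4 in *Mll1KO*. *Sox9* lies on chromosome 11 (ENSMUSG00000000567, 112782224 to 112787760, plus strand), and its RPKM was 8.17, 7.70 and 7.35 in WT and 7.75, 6.64 and 6.77 in *Mll1KO*. Both genes overlapped between the genotypes. The log2 difference was 0.07 (SE 0.06) for *Sox8*, which became -0.23 with rod scaling. For *Sox9* it was -0.12 (SE 0.07), which remained below 0 with every scaling tried and became -0.41 with rod scaling. The ratio of *Sox9* to *Sox8* RPKM, which does not depend on the scaling, was 0.803, 0.841 and 0.789 in WT and 0.734, 0.712 and 0.649 in *Mll1KO*. It was lower in all 3 *Mll1KO* samples. Of the exon bases of *Sox8*, 10.6% overlap the antisense gene *2810468N07Rik*, which was not analysed here.

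*Mab21l2*, which the optic vesicle and lens need during development, had the largest difference of the 10 genes. It is a single-exon gene on chromosome 3 (ENSMUSG00000057777, 86545581 to 86548629, minus strand). Its RPKM was 26.9, 29.5 and 30.9 in WT and 8.37, 7.40 and 10.3 in *Mll1KO*. The highest *Mll1KO* sample was below the lowest WT sample. The mean was 29.1 ± 2.04 in WT and 8.68 ± 1.47 in *Mll1KO* (SD, n = 3), 29.8% of WT. The log2 difference was -1.65 (SE 0.10), at rank 3 of the 11339 genes with a value, counted from the lowest. The *Mll1KO* samples spread more for this gene than for the other 9, with a coefficient of variation of 16.9%. The counting error at the mean of its 397 to 528 recovered reads is 4.59%.

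Its paralog *Mab21l1*, also a single-exon gene on chromosome 3 (ENSMUSG00000056947, 55782510 to 55785001, plus strand), did not share this difference. Its RPKM was 88.0, 89.1 and 92.1 in WT and 97.1, 89.8 and 94.4 in *Mll1KO*. *Mll1KO* sample b lay within the WT range and the other *Mll1KO* samples above it. The log2 difference was 0.06 (SE 0.04), and -0.27 with rod scaling. The ratio of *Mab21l1* to *Mab21l2* RPKM was 3.27, 3.02 and 2.98 in WT and 11.6, 12.2 and 9.18 in *Mll1KO*. This ratio does not depend on the scaling and was 3.55 times as high in *Mll1KO* as in WT.

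The coding sequences of *Mab21l1* and *Mab21l2* are both 1077 bases long without the stop codon in GENCODE vM21 transcripts and are identical at 868 positions, 80.6%. A read of 50 bases could come from either gene only where they match closely, so every window of 50 bases in the aligned coding sequences was compared. None of the 1028 windows was identical in the pair, the median window differed at 10 bases, and the closest windows differed at 3. The closest, from coding base 183 to 232, is printed from GENCODE vM21 with the differing bases in capitals.
Mab21l1: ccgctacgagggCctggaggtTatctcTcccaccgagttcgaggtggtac
Mab21l2: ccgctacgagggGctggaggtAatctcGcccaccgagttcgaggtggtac
Over whole transcripts and on either strand, *Mab21l1* and *Mab21l2* shared 0 stretches of 50 bases with each other, while *Six3* and *Six3os1* shared 59.

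Both *Mab21* genes lie inside larger genes on the opposite strand, whose annotated exons overlap them in part. *Mab21l2* lies in *Lrba*, whose exons cover 36% of the exon bases of *Mab21l2*, and *Mab21l1* lies in *Nbea*, whose exons cover 39.4% of the exon bases of *Mab21l1*. *Lrba* had RPKM values of 23.1, 23.9 and 24.4 in WT and of 22.9, 25.3 and 24.4 in *Mll1KO*, a log2 difference of 0.02 (SE 0.05, limma adjusted p = 0.778). *Nbea* had a log2 difference of -0.01 (SE 0.04, limma adjusted p = 0.939). Neither host gene passed the test, and how reads in the shared exon bases were divided between host and guest was not tested.

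The remaining measured genes on the list of hosts and neighbours were *Lmf1*, *Cplx4* and *Slc39a11*. *Cplx4*, a complexin of retinal ribbon synapses that lies 15934 bases from *Rax*, was called, with a log2 difference of 0.31 (SE 0.04, limma adjusted p = 0.000956) and higher values in 3 of 3 *Mll1KO* samples, though not with rod scaling. *Lmf1*, 8398 bases from *Sox8*, had a log2 difference of -0.12 (limma adjusted p = 0.127), and *Slc39a11*, 457092 bases from *Sox9*, one of -0.07 (limma adjusted p = 0.465). Of 12 host and neighbour genes listed, 7 were measured, and 1 of them was called, whereas with rod scaling 6 of the 7 were called lower and 0 higher. Of all genes 23.3% were called as deposited, and 85.7% were called lower with rod scaling. The list leaves out 2 measured genes whose exons overlap members, looked at after their values were seen. *Raxos1*, antisense to *Rax*, had RPKM values of 5.45, 5.76 and 6.26 in WT and of 6.07, 9.04 and 6.65 in *Mll1KO* and was not called (limma adjusted p = 0.129), except without *Mll1KO* sample a. *4930447C04Rik*, which overlaps 4.79% of the exon bases of *Six6*, had 4.76, 4.68 and 4.59 in WT and 2.95, 3.65 and 4.33 in *Mll1KO* and was called lower (log2 difference -0.30, SE 0.09, limma adjusted p = 0.0446), though not with RLE or upper-quartile factors, with the replicate block or in 5 of 6 fits that each leave out 1 sample.

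The 3 genes outside the 10 whose profile over the 6 samples was most like that of *Mab21l2* were *Kif19a*, *Hspa8* and *Bahcc1*. Likeness was the root mean square difference between log2(RPKM + 1) profiles, each taken from its own WT mean, and it was 0.203, 0.212 and 0.235 for these genes. *Kif19a*, a kinesin, had RPKM values of 18.01, 19.7 and 16.3 in WT and of 3.79, 4.20 and 4.79 in *Mll1KO*. *Hspa8*, a constitutive chaperone, had 68.8 ± 3.26 in WT and 18.5 ± 0.569 in *Mll1KO* (RPKM, SD, n = 3). For *Six3os1* the nearest were *Pcsk6*, *Crym* and *Islr2*, at 0.084, 0.115 and 0.124. *Pcsk6*, a proprotein convertase, had RPKM values of 8.69, 8.72 and 8.43 in WT and of 3.55, 3.66 and 4.20 in *Mll1KO*. The likeness follows from a shared difference between genotypes in these 6 samples, which was part of how *Mab21l2* and *Six3os1* were chosen.

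Other genes of the same developmental programs were put on lists with earlier results of these data known, so that the share of a list that was called describes these genes and not the programs at large. They were tested with limma over all 11339 genes, of which 2643 (23.3%) were called at an adjusted p under 0.05, 999 (8.81%) higher and 1644 (14.5%) lower in *Mll1KO*. The share of higher calls, 37.8%, was 53.1% with RLE factors, 51.2% with upper-quartile factors and 1.98% with rod scaling, where 85.7% of all genes were called lower. Of 30 other eye field and optic vesicle regulators, 16 were measured, and 14 of them fell and 1 rose, with a median log2 difference of -0.33 against -0.03 over all genes. Relative to the median of all genes, that list median lay at -0.30 as deposited, at -0.30 with RLE or upper-quartile factors and at -0.32 with rod scaling. *Nr2f2*, an orphan nuclear receptor of the optic vesicle and of amacrine cells, fell by 0.56 on the log2 scale (SE 0.06, limma adjusted p = 0.00028). *Meis1*, a TALE homeodomain gene upstream of *Pax6* in the eye, fell from 9.37, 9.40 and 9.40 RPKM in WT to 6.30, 6.18 and 6.14 in *Mll1KO* (log2 difference -0.53, limma adjusted p = 7.26e-05). *Tbx2*, a T-box gene of the dorsal optic cup, fell by 0.44 (SE 0.06, limma adjusted p = 0.000685). Each of these was lower in 3 of 3 *Mll1KO* samples. *Six5* was the gene that rose, from a mean RPKM of 1.98 ± 0.0534 in WT to 2.8 ± 0.166 in *Mll1KO* (SD, n = 3; log2 difference 0.35, limma adjusted p = 0.00163), and it was not called with rod scaling. The calls of *Tbx3* and *Eya3* were lost with RLE or upper-quartile factors and with the replicate block, and that of *Eya3* also without any one sample, that of *Tbx3* without any one but *Mll1KO* sample c.

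Singled out after their values were seen, *Pax6* and *Otx2* were lower too. *Pax6* was at 44.7, 40.2 and 42.0 RPKM in WT and at 33.5, 31.4 and 34.7 in *Mll1KO*, 78.5% of WT (limma adjusted p = 0.00153). *Otx2*, which photoreceptors and bipolar cells require, was at 78.0% of WT (log2 difference -0.35, limma adjusted p = 0.00136). *Pax2*, *Vax1*, *Hesx1*, *Tbx5*, *Otx1*, *Dach2* and the list’s *Six2*, *Six4*, *Foxd1*, *Eya1*, *Eya2* and *Eya4* were not analysed here.

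Of 32 progenitor and neurogenic regulators, 20 were measured, with 8 lower, 3 higher and a median log2 difference of -0.15. With RLE or upper-quartile factors, 4 were lower and 3 higher, and with rod scaling 16 were lower and 1 higher. Leaving out 1 sample at a time gave 4 to 6 lower and 3 higher, and the lower calls of *Zic1*, *Nes*, *Neurod1*, *Fzd5* and *Casz1* were each lost in some of these fits. *Insm1*, a zinc-finger gene of newly born neurons, fell by 0.64 on the log2 scale (SE 0.10, limma adjusted p = 0.00211). *Neurod4*, a bHLH gene of bipolar and amacrine fate, fell by 0.51 (SE 0.06, limma adjusted p = 0.000355), and *Nfib*, a late-progenitor factor, fell by 0.34 (SE 0.05, limma adjusted p = 0.00136). The genes that rose were all ID genes, inhibitors of bHLH factors. *Id2* had 7.30, 7.01 and 9.54 RPKM in WT and 11.5, 11.7 and 11.7 in *Mll1KO* (log2 difference 0.51, limma adjusted p = 0.00369). *Id3* and *Id1* had log2 differences of 0.47 (limma adjusted p = 0.00114) and 0.24 (limma adjusted p = 0.00723), calls that were lost with rod scaling. All 3 ID genes were higher in 3 of 3 *Mll1KO* samples. *Neurog2*, *Atoh7*, *Foxn4*, *Olig2* and *Hes5*, which mark neurogenic progenitors, were not analysed here.

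Of 16 other SOX genes, 6 were measured, with 2 lower, 0 higher and a median log2 difference of -0.16. *Sox4*, a SOXC gene of differentiating neurons, had 9.55, 9.66 and 8.77 RPKM in WT and 6.13, 5.06 and 5.83 in *Mll1KO*. It fell by 0.63 on the log2 scale (SE 0.07, limma adjusted p = 0.000251). *Sox6*, a SOXD gene, fell by 0.31 (SE 0.07, limma adjusted p = 0.00903). Both fell in 3 of 3 *Mll1KO* samples and with each scaling tried, and with rod scaling all 6 were lower. The SOXC gene *Sox11* and the SOXB genes *Sox1*, *Sox3*, *Sox14* and *Sox21* were not analysed here.

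**Figure D2:**
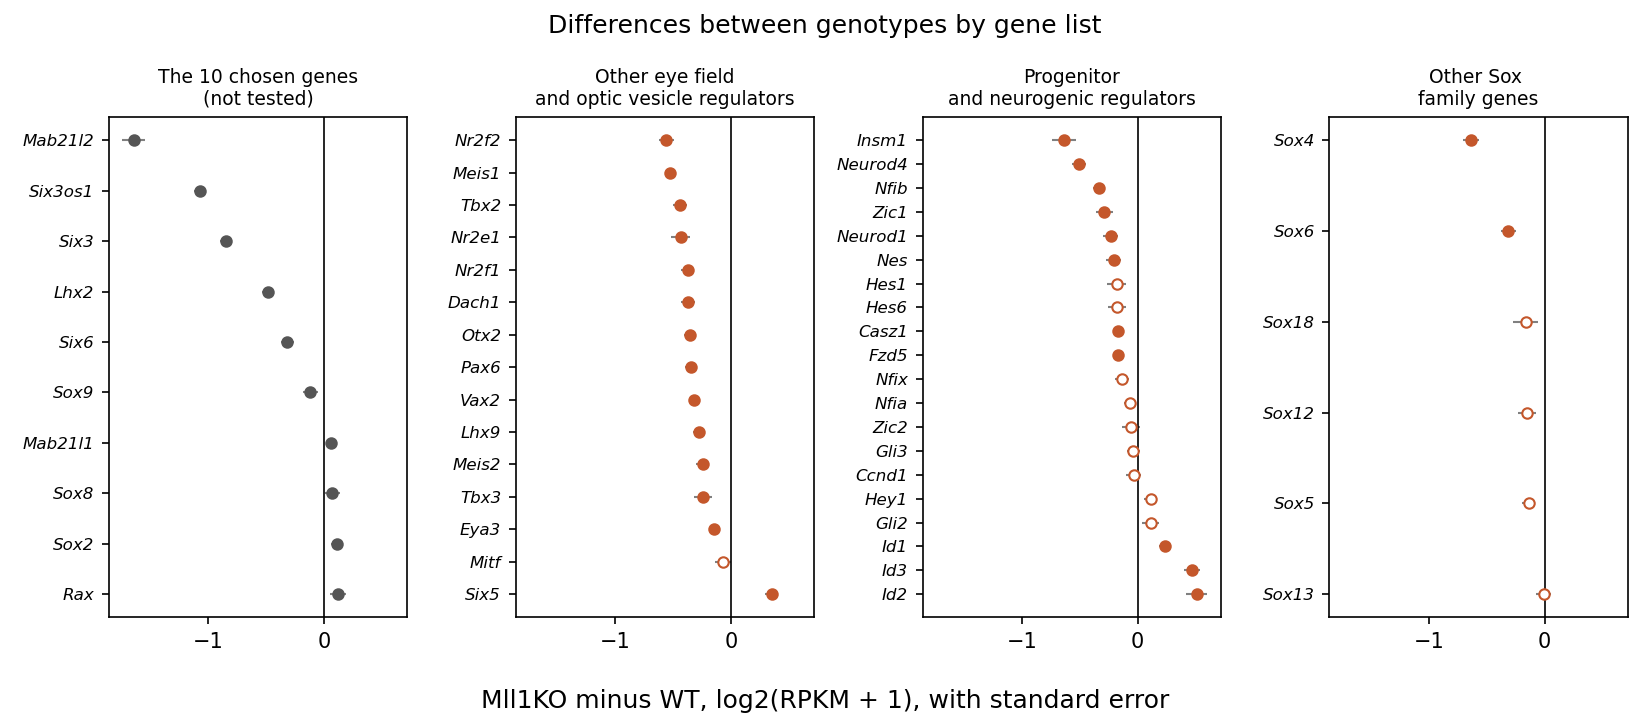
Log2 difference (*Mll1KO* minus WT, log2(RPKM + 1), n = 3 each) with standard error for the 10 chosen genes (grey, not tested) and for measured genes of 3 lists, where filled orange points passed a limma adjusted p under 0.05 over all genes. Of the other eye field and optic vesicle regulators 15 of the 16 measured are drawn, and all called genes among them lie to the left except *Six5*, to the right (not called with rod scaling), and with rod scaling *Rax*, *Sox2*, *Sox8* and *Mab21l1* also lie to the left of 0.

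The 10 genes are active in cell types whose own markers differed between the genotypes. Of 12 Müller glia markers, all measured, 7 were higher and 1 (*Vim*) lower, with a median log2 difference of 0.34. With rod scaling 3 were higher and 5 lower, with a median of 0.02. Their RPKM summed to 1529, 1515 and 1661 in WT and to 1937, 2024 and 1989 in *Mll1KO*, with *Glul* the most abundant. As deposited, the Müller glia sum was thus higher in *Mll1KO*, whereas *Sox2*, *Sox8*, *Sox9* and *Rax* overlapped between the genotypes and *Lhx2* was lower. With rod scaling the Müller glia sums, 1665, 1754 and 1862 in WT and 1727, 1775 and 1800 in *Mll1KO*, overlapped and all 5 genes were lower. Of 12 amacrine markers, 3 were higher and 5 lower, with a median log2 difference of 0.11. With RLE or upper-quartile factors 6 were higher and 5 lower, and with rod scaling 0 were higher and 8 lower. The amacrine sum, led by *Calb2*, was 744, 738 and 767 in WT and 699, 697 and 723 in *Mll1KO*. Without *Calb2* it was 502, 479 and 505 in WT and 500, 521 and 559 in *Mll1KO*, so that as deposited the lower sum came from *Calb2*. With rod scaling the sum with *Calb2* was 810, 855 and 860 in WT and 624, 611 and 654 in *Mll1KO*. Of 12 bipolar markers, 0 were higher and 5 lower (12 lower with rod scaling), and the sum, led by *Grm6*, was 452, 454 and 451 in WT and 404, 392 and 405 in *Mll1KO*.

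Horizontal and ganglion cell markers were lower as well. Of 6 horizontal cell markers, 4 were measured and 3 were lower (4 with rod scaling), and the sum, led by *Prox1*, was 53.0, 54.6 and 50.5 in WT and 37.2, 38.4 and 39.9 in *Mll1KO*. Of 8 ganglion cell markers, 6 were measured and 5 were lower (6 with rod scaling), and the sum, led by *Sncg*, was 309, 285 and 305 in WT and 226, 208 and 186 in *Mll1KO*. *Lhx1* and *Gja10* of the former and *Pou4f3* and *Isl2* of the latter were not analysed here. Of 11 rod markers, 9 were higher and 1 lower. Cone markers were higher for 7 of 10 and lower for 1, with mean sums of 377 in WT and 451 in *Mll1KO*. With rod scaling, which sets the rod sum equal by construction, 3 cone markers were higher and 3 lower, with a median of -0.01. The part of any of these cell types in the values of the 10 genes was not tested.

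Few markers of dividing progenitors were among the measured genes at P14. Of 8 markers of cycling cells, *Pcna*, *Mcm2* and *Ccna2* were measured and 0 of 3 were called by limma (2 lower with rod scaling), with mean sums of 19.0 in WT and 19.0 in *Mll1KO*, while *Mki67*, *Top2a*, *Ccnb1*, *Cdk1* and *Birc5* were not analysed here. Markers of tissue next to the retina varied between samples of one genotype. Pigment epithelium markers, of which 4 of 9 were measured and 0 were called (3 lower with rod scaling), summed to 198, 110 and 302 in WT and to 93.8, 206 and 97.9 in *Mll1KO*. *Ttr* was the most abundant, and *Rpe65*, *Mlana*, *Tyr*, *Best1* and *Lrat* were not analysed here. The lens marker *Cryaa*, the 1 measured of 8, was at 6.54, 6.61 and 7.51 RPKM in WT and at 32.1, 12.4 and 7.28 in *Mll1KO*.

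Astrocyte markers were measured for 4 of 5 genes, and 3 were higher (1 with rod scaling), with sums of 13.9, 14.7 and 14.5 in WT and 22.9, 22.5 and 22.7 in *Mll1KO*, led by *Gfap*. Of 5 endothelial markers 2 were lower (4 with rod scaling, and 2 lower with 1 higher by RLE or upper-quartile factors), with a mean sum of 75.9 in WT and 53.7 in *Mll1KO*, led by *Kdr*. Of 3 microglia markers measured of 5, 0 were called by limma (2 lower with rod scaling), with mean sums of 13.5 in WT and 13.2 in *Mll1KO*.

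Promoter windows of 250 bases before the RefSeq gene start were available from RefSeq (GRCm38.p6) for 7 of the 10 genes, as 8 windows. They were searched for CG, which reads alike on both strands, and for TAATTA, the core that many homeodomain proteins bind, which also does. The windows held 27 CG in *Sox2*, 25 and 24 in the pair of *Lhx2*, 19 in *Six3os1*, 18 in *Sox8*, 17 in *Six6*, and 10 each in *Six3* and *Mab21l2*. Over 32851 windows the median was 6, and over the 11412 windows of genes measured here it was 16. The windows of *Six3* and *Mab21l2* were thus below the median of measured genes, and 37.8% of all windows held at least 10. TAATTA was in 0 of the 8 windows and in 4.84% of all windows.

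The windows of the 3 genes at the lowest share of their WT level are shown with CG in capitals, to set the windows of *Mab21l2* and *Six3*, with 10 CG each, beside that of *Six3os1*. That of *Mab21l2* is chr3:86548284-86548533 (minus strand), before the RefSeq start but inside the longer GENCODE exon of this gene, that of *Six3* is chr17:85620584-85620833 (plus strand) between its first and second exon blocks in GENCODE, and that of *Six3os1* is chr17:85618397-85618646 (minus strand).
Mab21l2: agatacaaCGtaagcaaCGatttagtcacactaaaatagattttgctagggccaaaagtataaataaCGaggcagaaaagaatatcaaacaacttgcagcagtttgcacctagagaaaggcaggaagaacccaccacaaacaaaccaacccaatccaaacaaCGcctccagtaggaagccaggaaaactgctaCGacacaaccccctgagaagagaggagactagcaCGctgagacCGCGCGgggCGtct
Six3: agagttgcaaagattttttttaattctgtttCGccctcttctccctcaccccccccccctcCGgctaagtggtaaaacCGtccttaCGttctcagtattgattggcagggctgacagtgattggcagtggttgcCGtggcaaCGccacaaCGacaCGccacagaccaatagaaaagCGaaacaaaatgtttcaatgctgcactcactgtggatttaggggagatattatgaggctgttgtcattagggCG
Six3os1: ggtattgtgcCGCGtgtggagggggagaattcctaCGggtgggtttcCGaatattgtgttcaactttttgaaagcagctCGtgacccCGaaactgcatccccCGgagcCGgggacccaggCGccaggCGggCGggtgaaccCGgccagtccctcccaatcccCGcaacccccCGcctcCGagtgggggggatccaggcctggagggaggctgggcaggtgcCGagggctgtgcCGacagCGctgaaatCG
The share of G and C bases was 46.8% in the *Mab21l2* window, 48.8% in that of *Six3* and 66% in that of *Six3os1*.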

How the data were processed

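RNA from *Mll1KO* and WT retinas was sequenced by the authors, who deposited RPKM. Per the labels and methods, reads were aligned to mm10 with STAR 2.0.4b, counted with featureCounts 1.45, and only genes with CPM over 5 in 5 or more libraries were kept. The table also holds the fold change, mean abundance, p-value and FDR of the authors' edgeR comparison, which were not used. Of 11404 lines, 65 repeated lines were dropped, leaving 11339 genes. Library reads were recovered as whole numbers within 0.01 reads for 100% of genes.

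Genotypes were compared with limma 3.58.1 (R 4.3.3) on log2(RPKM + 1), with a variance trend, Benjamini-Hochberg adjustment over all genes and a threshold of 0.05. The main test used RPKM because that is the deposited unit, and edgeR was not run on the recovered reads. The procedure was run on simulated data in which few genes changed, as many higher as lower. That run did not test the effect of the scaling. The 10 genes and all lists were chosen with earlier results of these data known. Named genes were the 10, the 3 most alike to *Mab21l2* and to *Six3os1*, the 3 largest called increases and decreases of each list, and all measured neighbours. Coordinates and transcripts came from GENCODE vM21. The methods call the samples biological replicates. Alternatives were pseudocounts of 0.1 and 5, a filter at a mean RPKM of 1, RLE, upper-quartile and rod-sum scaling, limma-voom on recovered reads, a replicate block, and leaving out each sample. Some genes that meet the naming rule are not reported here.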

Additional observations from a re-analysis of the deposited data

How the results depend on the processing

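*Mab21l2*, *Six3os1*, *Six3*, *Lhx2*, *Six6* and *Sox9* were lower in *Mll1KO* in all 14 alternative settings, with log2 differences from -1.96 to -1.32 for *Mab21l2* and from -1.38 to -0.82 for *Six3os1*. Rod scaling turned *Rax* to -0.20, *Sox2* to -0.19, *Sox8* to -0.23 and *Mab21l1* to -0.27, because it moved the median over all genes from -0.03 to -0.32, and relative to that median these genes lay at 0.12, 0.13, 0.09 and 0.06. With it, 9919 genes were called (2643 as deposited), 17 of the progenitor and neurogenic regulators (11 as deposited), 6 other SOX genes (2 as deposited), and all 10 chosen genes were lower without overlap (5 as deposited). With RLE factors and with upper-quartile factors 7 progenitor and neurogenic regulators were called, and 2 chosen genes were higher without overlap, *Mab21l1* and *Sox2* (0 as deposited). Of all genes, 19.9% with RLE factors and 19.1% with upper-quartile factors were higher without overlap (14.6% as deposited). With rod scaling, 83.3% of all genes were lower without overlap (26.5% as deposited). In the WT order 2 neighbouring pairs overlapped, and 1 did with rod scaling. The causes of these other differences were not tested.

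Leaving out each sample gave 1704 to 2536 called genes, 13 to 14 other eye field and optic vesicle regulators, 7 to 9 progenitor and neurogenic regulators, 2 other SOX genes, 5 to 6 chosen genes lower and 0 to 3 higher without overlap, and 1 to 2 overlapping pairs in the WT order. Of all genes, 29.9% to 33.9% were lower and 16.9% to 19.5% higher without overlap in these fits. Among the chosen genes, *Sox9* was the added lower gene, without *Mll1KO* sample a. Higher without overlap were *Rax*, *Sox2* and *Sox8* without WT sample a, *Mab21l1* without WT sample c, *Rax* and *Sox2* without *Mll1KO* sample a, and *Mab21l1* and *Sox8* without *Mll1KO* sample b. The lowest counts of called genes were 1704 without WT sample b and 1757 without *Mll1KO* sample c. The replicate letter as a block gave 2242 called genes. Samples that share a letter correlated at -0.0395, -0.19 and -0.00714 in their deviations from the group means. With 3 samples per group, these values cannot settle whether the letters pair the samples. Depth limits *Sox2* most among the chosen genes, whose 393 to 530 reads per library carry a counting error of up to 5.04%.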
